A study of Caenorhabditis elegans with 12 samples.

Results

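Cytochrome P450 enzymes are haem proteins of the endoplasmic reticulum, or in a few cases the mitochondrion, that insert an oxygen atom into fatty acids, sterols, eicosanoids and foreign compounds. They draw electrons from NADPH-cytochrome P450 reductase, with cytochrome b5 as a second donor. In C. elegans the family has expanded into subfamilies, many of them in tandem, and several members are expressed mainly in the intestine, where foreign compounds and dietary lipids are handled. The genes examined here were all those whose name in the authors' tables begins with cyp-, 75 of the 20222 genes listed. The P450 gene daf-9 does not carry that name and is given below only with the steroid pathway.

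The strains were TY4986, which carries htp-3(y428), AV157, which carries spo-11(me44), AV477, which carries dsb-2(me96), and N2, the wild type. The proteins act in meiosis: HTP-3 is a chromosome axis protein, SPO-11 makes the double-strand breaks that start recombination, and DSB-2 promotes those breaks. All 4 strains were grown at 20 °C on E. coli OP50, and polyadenylated RNA was taken from whole adults at day 1, with 3 libraries per strain that the series text calls biological replicates. Each mutation was present in 1 strain, so mutation and strain background cannot be told apart. The series was made to relate meiotic dysfunction to somatic aging, per its title.

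Depth ranged from 32422219 to 42527086 mapped reads per library, which sets the step of the scale: for 1 kilobase of exon, a single read stood for 0.0293 to 0.0437 TPM, a length-scaled level whose sum is the same in every library. As a check of the labels, the htp-3 transcript was at 6.67, 12.3 and 9.52 TPM in htp-3 against 67.9 to 77.9 TPM in N2, and the dsb-2 transcript at 17.4, 20.1 and 17.8 TPM in dsb-2 against 55.4 to 62.5 TPM in N2. The spo-11 transcript ranged from 33.7 to 37.9 TPM in its mutant and from 24.5 to 45.9 TPM in N2. These values overlapped, so the transcript does not check the spo-11 label. TPM values are shares of each library. Over all genes tested, the median log2 fold change was 0.27 in htp-3, 0.80 in spo-11 and 0.02 in dsb-2 relative to N2, so a P450 gene at that value only moved with the rest.

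The 75 genes lay on all chromosomes, with 42 of them on V, 12 on II, 7 each on IV and X, 6 on III and 1 on I, and fell into 25 subfamilies by name. Of these, 49 reached 1 TPM in at least 3 of the 12 libraries and were tested, and 26 did not. Among the 49, 28 were at 1 TPM or more in all 3 N2 libraries and 15 were under 1 TPM in all 3, so part of the family entered the test only through a mutant in which it was higher. Just outside this minimum were cyp-13A6, cyp-29A4 and cyp-13A12, whose third-highest library was at 0.723, 0.727 and 0.995 TPM. Just inside were cyp-14A2, cyp-13A4 and cyp-34A10, at 1.06, 1.19 and 1.20 TPM by the same measure.

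The summed level of the family was similar in all strains, but its makeup was not. The 75 genes together held 356, 544 and 486 TPM in htp-3, 599, 568 and 509 TPM in spo-11, 503, 546 and 473 TPM in dsb-2, and 527, 535 and 389.8 TPM in N2. These sums overlapped between every mutant and N2. The 3 genes of subfamily 31A made up 27.02%, 33.9% and 29.2% of the sum in htp-3 and 20.4%, 22.6% and 24.0% in spo-11. Their share was 67.2%, 59.3% and 70.0% in dsb-2 and 68.7%, 56.8% and 67.0% in N2. The htp-3 and spo-11 libraries thus held 31A shares below every dsb-2 and N2 library. The other 72 genes held 259.7, 359 and 344 TPM in htp-3 and 477, 439.5 and 386 TPM in spo-11. They held 165, 222 and 142 TPM in dsb-2 and 165, 231 and 129 TPM in N2, so each library of htp-3 and spo-11 lay above each library of N2. The number of P450 genes with a mean of at least 5 TPM was 24 in htp-3, 26 in spo-11, 11 in dsb-2 and 10 in N2. The share of all genes at that level was not computed. The median of all genes tested also rose, by log2 values of 0.27 in htp-3 and 0.80 in spo-11.

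**Figure D1:**
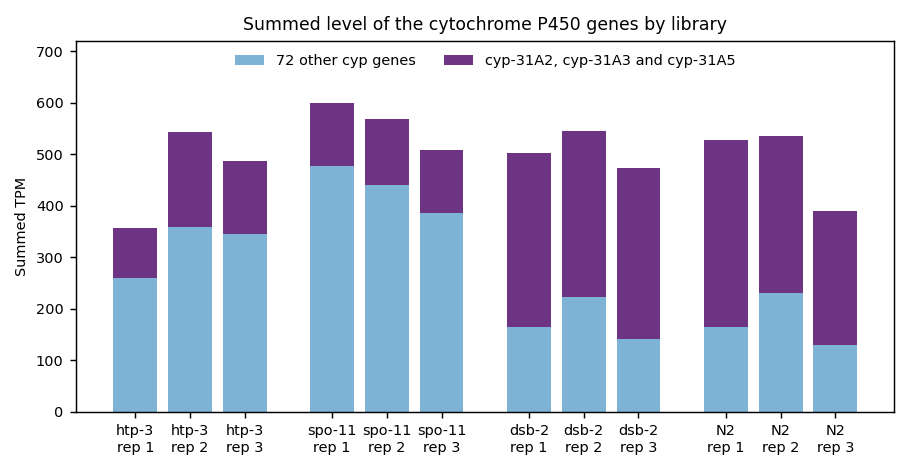
Summed TPM of the 75 cytochrome P450 genes in each of the 12 libraries (bars, linear axis from 0), split into the 3 genes of subfamily 31A (dark) and the other 72 genes (light). The dark part is 20.4% to 33.9% of the bar in htp-3 and spo-11 libraries and 56.8% to 70.0% in dsb-2 and N2 libraries.

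The genes cyp-31A2 and cyp-31A3 are required for the lipid permeability barrier of the eggshell. The 3 genes of subfamily 31A were the highest P450 genes in N2 and fell in htp-3 and spo-11. The level of cyp-31A2 (chromosome IV, 11403961 to 11406066, WBcel235, positions here being those of the authors' files) was 37.9, 76.2 and 58.5 TPM in htp-3, 55.8, 54.8 and 53.3 TPM in spo-11, 125, 125 and 132 TPM in dsb-2, and 138, 122 and 101 TPM in N2. Every htp-3 and spo-11 library was below every N2 library. The log2 fold change of cyp-31A2 was -1.09 ± 0.21 in htp-3 (SE; adjusted p = 5.54e-04 by limma) and -1.11 ± 0.21 in spo-11 (adjusted p = 1.62e-04 by limma). For cyp-31A3 the means were 40.2 ± 13.2 TPM in htp-3, 34.1 ± 3.89 TPM in spo-11, 107 ± 12.03 TPM in dsb-2 and 91.9 ± 19.6 TPM in N2 (SD, n = 3 each). For cyp-31A5 they were 43.0 ± 12.1 TPM in htp-3, 35.5 ± 1.32 TPM in spo-11, 96.3 ± 9.50 TPM in dsb-2 and 97.1 ± 14.3 TPM in N2. Both were lower in htp-3 and spo-11, by log2 values of -1.20 (cyp-31A3) and -1.19 (cyp-31A5) in htp-3 and -1.39 (cyp-31A3) and -1.42 (cyp-31A5) in spo-11. The 3 genes are close paralogs whose reads the authors' counting could have divided among them, so each is uncertain as a single gene.

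In htp-3 and spo-11, markers of germline and oocytes were lower along with the 31A genes. Among all genes tested, 19.7% were lower in htp-3 and 22.1% in spo-11. Of 15 such markers, 14 were lower and none higher in htp-3, and likewise in spo-11, while none was called in dsb-2. Their summed level ranged from 2657 to 5872 TPM in htp-3, 2861 to 3344 TPM in spo-11, 9555 to 13738 TPM in dsb-2 and 7876 to 8180 TPM in N2. No marker on the list was at 0 in all 3 libraries of a strain. Fewer germ cells and less RNA per germ cell cannot be told apart in whole animals, and the part of either in the fall of the 31A genes was not tested.

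Relative to N2, the strain with the mutated axis protein HTP-3 had mostly higher P450 levels. Of the 49 P450 genes tested, 33 rose and 5 fell (67.3% and 10.2% of them), where 39.5% of all 13650 genes tested rose and 19.7% fell. The filter sets part of this count, since 14 of the 49 were under 1 TPM in every N2 and dsb-2 library. Those 14 entered the test only through htp-3 or spo-11. All genes passed the same filter. The median log2 fold change was 0.76 for the P450 genes and 0.27 for all genes, and 39 of the 49 lay above the all-gene median. With median-of-ratios scaling, which sets the typical gene near 0, 30 rose and 6 fell, where 4213 of the 13650 genes tested rose and 4743 fell, with medians of 0.56 for the P450 genes and 0.07 for all genes. Requiring a fold change of at least 2 left 16 of the 33.

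The highest fold change was that of cyp-13A5 (chromosome II, 9798277 to 9800363, minus strand), a member of a tandem group whose substrate is not assigned here. It was at 26.1, 56.1 and 29.6 TPM in htp-3, against 0.826, 1.57 and 0.757 TPM in N2. The lowest htp-3 library was far above the highest N2 library. The means were 37.3 ± 16.4 TPM in htp-3 and 1.05 ± 0.45 TPM in N2 (SD, n = 3 each). The log2 fold change of cyp-13A5 was 4.16 ± 0.37 (SE; adjusted p = 1.84e-06 by limma), which ranked 11 of 13650 genes. In htp-3 it was the fifth P450 gene by level.

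The other P450 genes that rose in htp-3 changed less. The gene cyp-32B1 was at 2.39, 2.204 and 2.59 TPM in htp-3 against 0.262, 0.248 and 0.203 TPM in N2, for a log2 change of 1.45 ± 0.15 (SE; adjusted p = 6.93e-06 by limma). Its 3 values in each strain lay close together and far apart between strains. Genes with higher levels also rose. For cyp-37A1 the values were 15.9, 15.5 and 13.1 TPM in htp-3 against 4.94, 8.94 and 5.46 TPM in N2, for a log2 change of 1.12. For cyp-43A1 they were 9.97, 9.18 and 11.6 TPM in htp-3 against 3.39, 5.57 and 2.78 TPM in N2, for a log2 change of 1.23. The gene cyp-33C9 was at 12.3, 11.7 and 10.6 TPM in htp-3 against 4.47, 6.73 and 4.51 TPM in N2, for a log2 change of 1.02. None of these 3 genes overlapped between htp-3 and N2. Log2 fold changes of the further genes that rose most at 5 TPM or more were 1.35 for cyp-32A1, 1.27 for cyp-13A2, 1.21 for cyp-34A8, 1.16 for cyp-34A9, 1.12 for cyp-25A3 and 0.98 for cyp-36A1, and 1.18 for cyp-33C7, which averaged under 5 TPM.

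Beside the 31A genes, cyp-25A1 and cyp-44A1 fell in htp-3. The gene cyp-25A1 (chromosome III, 3832591 to 3834522) was at 1.74, 2.05 and 1.60 TPM in htp-3 against 7.19, 12.4 and 4.32 TPM in N2, for a log2 change of -1.58 ± 0.31 (SE; adjusted p = 6.52e-04 by limma). All htp-3 libraries were below all N2 libraries, while N2 itself varied widely. The gene cyp-44A1, which encodes the mitochondrial P450 of the worm, was at 14.7, 25.3 and 24.7 TPM in htp-3 against 36.2, 39.0 and 25.1 TPM in N2. One htp-3 library slightly exceeded the lowest N2 library, and the change of -0.62 ± 0.22 (log2, SE; limma adjusted p = 0.0259) was no longer called for cyp-44A1 without htp-3 replicate 1, N2 replicate 1 or N2 replicate 2, or with only these 2 strains in the fit.

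**Figure D2:**
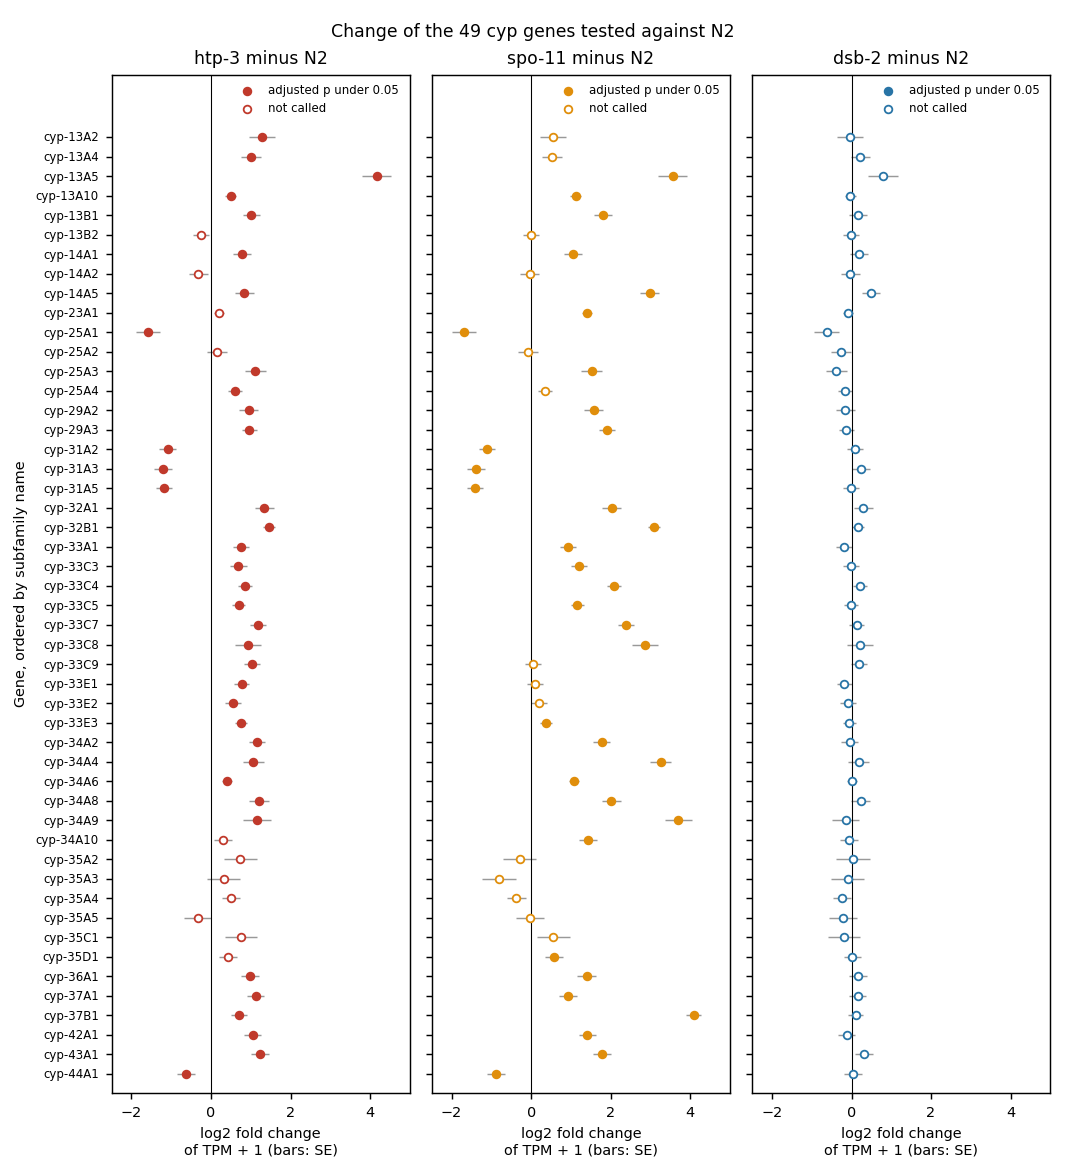
Log2 fold change of TPM + 1 for the 49 cytochrome P450 genes tested, in htp-3, spo-11 and dsb-2 relative to N2 (points; bars are the standard error of the fit, filled points have an adjusted p under 0.05). Most filled points lie right of 0 in htp-3 and spo-11, the 31A genes, cyp-25A1 and cyp-44A1 lie left of it, and no point is filled in dsb-2.

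In spo-11, the strain mutated in the enzyme that makes meiotic breaks, 30 P450 genes rose and 5 fell (61.2% and 10.2% of the 49). Of all genes tested, 55.6% rose and 22.1% fell, so the share of P450 genes that rose was near that of all genes. As in htp-3, the filter sets part of the count. The median log2 fold change was 1.08 for the P450 genes and 0.80 for all genes, and 28 of the 49 lay above the all-gene median. With median-of-ratios scaling 26 rose and 13 fell, where 6033 of the 13650 genes tested rose and 5449 fell, with medians of 0.71 for the P450 genes and 0.16 for all genes. The 8 genes that were lower by that scaling alone were cyp-13B2, cyp-25A2, cyp-33C9, cyp-33E1, cyp-33E2, cyp-35A2, cyp-35A3 and cyp-35A4.

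The largest change in spo-11 was of a gene nearly silent in N2. The gene cyp-37B1 (chromosome V, 16278191 to 16280612) was at 19.9, 13.3 and 18.6 TPM in spo-11 against 0.0772, 0.0648 and 0.0531 TPM in N2, where the reads rebuilt from RPKM, which depend on an inferred gene length, were 4, 3 and 3. In htp-3 it was at 0.321, 0.928 and 1.07 TPM. The order of cyp-37B1 was thus spo-11, htp-3 and N2, with no overlap between these strains. Its log2 fold change was 4.08 ± 0.19 in spo-11 (SE; adjusted p = 1.22e-09 by limma), and 0.71 ± 0.19 in htp-3, where the call of cyp-37B1 was lost with a pseudocount of 5.

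Subfamily 34A includes cyp-34A9, a gene known to respond to the insulin-pathway factor DAF-16. Of its 9 genes 6 were tested, and all 6 were called higher in spo-11, where 55.6% of all genes tested rose. In htp-3, 5 of the 6 were also called higher, where 39.5% of all genes tested rose. Both counts were the same with median-of-ratios scaling. The count in spo-11 is partly set by the filter, since cyp-34A6 and cyp-34A10 reached 1 TPM in spo-11 alone. The gene cyp-34A9 (chromosome V, 3968134 to 3970514) was at 48.3, 50.6 and 26.5 TPM in spo-11 against 2.11, 3.41 and 1.34 TPM in N2, for a log2 change of 3.70 ± 0.34 (SE; adjusted p = 1.36e-07 by limma). That made it the second P450 gene by level in spo-11, behind cyp-31A2. The gene cyp-34A4 was at 12.1, 6.79 and 9.08 TPM in spo-11 against 0.0763, 0.0855 and 0.0175 TPM in N2, where it had 4, 4 and 1 rebuilt reads, and its log2 fold change was 3.25 ± 0.27 (SE; adjusted p = 4.15e-08 by limma). With so few reads in N2 the size of that fold is set by the pseudocount, while the spo-11 libraries were all above N2. The gene cyp-34A8 was at 23.2, 19.6 and 21.04 TPM in spo-11 against 4.18, 4.88 and 4.47 TPM in N2, for a log2 change of 2.01. With median-of-ratios scaling the 3 genes remained higher in spo-11.

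Some genes of other subfamilies also rose in spo-11, where 55.6% of all genes tested rose. Called higher were 2 of 4 genes tested in 13A, 2 of 3 in 14A, 5 of 6 in 33C and the 1 gene of 32B. The gene cyp-13A5 was at 35.5, 22.6 and 14.5 TPM in spo-11 against 0.826, 1.57 and 0.757 TPM in N2, for a log2 change of 3.56 ± 0.37 (SE; adjusted p = 4.56e-07 by limma), which ranked 576 of 13650. The gene cyp-14A5 was at 38.8, 28.1 and 33.6 TPM in spo-11 against 3.28, 4.21 and 2.71 TPM in N2, for a log2 change of 2.97 ± 0.23 (SE; adjusted p = 2.63e-08 by limma). The spo-11 values of both genes were above the N2 values with a wide gap. The gene cyp-32B1 was at 9.65, 9.28 and 9.62 TPM in spo-11 against 0.262, 0.248 and 0.203 TPM in N2, for a log2 change of 3.09 ± 0.15 (SE; adjusted p = 1.29e-09 by limma). For cyp-33C8 the values were 32.98, 22.1 and 30.5 TPM in spo-11 against 2.11, 5.69 and 2.07 TPM in N2, for a log2 change of 2.87 ± 0.32. Neither overlapped between the strains. Log2 fold changes of the further genes that rose most were 2.39 for cyp-33C7, 2.09 for cyp-33C4 and 2.02 for cyp-32A1. The gene cyp-33C8 was also called in htp-3 (log2 fold change 0.93), but 1 N2 library there lay within the htp-3 range and the call of cyp-33C8 was lost with median-of-ratios scaling or without htp-3 replicate 3, N2 replicate 1 or N2 replicate 3.

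The 5 genes that fell in spo-11 were the 3 genes of subfamily 31A, cyp-25A1 and cyp-44A1. The gene cyp-25A1 was at 1.62, 2.48 and 0.910 TPM in spo-11 against 7.19, 12.4 and 4.32 TPM in N2, for a log2 change of -1.69 ± 0.31 (SE; adjusted p = 1.27e-04 by limma). The gene cyp-44A1 was at 17.7, 16.5 and 17.9 TPM in spo-11 against 36.2, 39.0 and 25.1 TPM in N2, for a log2 change of -0.88 ± 0.22 (SE; adjusted p = 0.00202 by limma). Neither gene overlapped between spo-11 and N2. The neighbour of cyp-25A1, cyp-25A2, was at 11.5, 14.3 and 9.13 TPM in spo-11 and 9.43, 18.5 and 9.96 TPM in N2, values that overlapped.

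**Figure D3:**
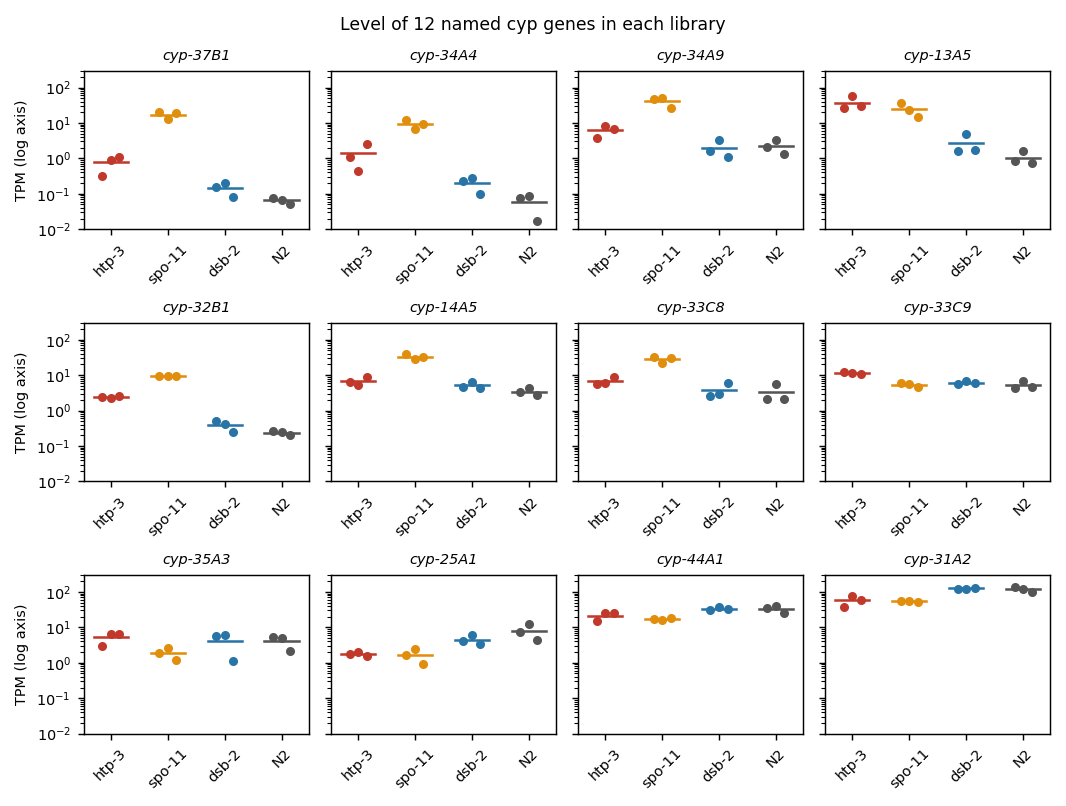
Level of 12 cytochrome P450 genes in each library (points, TPM on a log axis) with the strain mean (lines), for htp-3, spo-11, dsb-2 and N2. The gene cyp-37B1 is at 13.3 to 19.9 TPM in spo-11 and at no more than 1.07 TPM elsewhere, cyp-13A5 is high in both htp-3 and spo-11, and cyp-25A1 and cyp-31A2 are below N2 in both.

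In dsb-2, mutated in a factor that promotes meiotic breaks, no P450 gene was called by limma, higher or lower, where 0.190% of all genes tested rose and 0.0733% fell. Limma-voom on rebuilt reads also called none. At an unadjusted p under 0.05 there was 1 P450 gene, cyp-13A5, where 10.6% of all genes tested passed. Its level was 1.65, 4.90 and 1.76 TPM in dsb-2 against 0.826, 1.57 and 0.757 TPM in N2, so the 3 dsb-2 libraries were above N2, and its log2 fold change was 0.80 ± 0.37 (SE; adjusted p = 0.468 by limma). The 3 dsb-2 libraries were above the 3 N2 libraries for 4 of the 49 genes (8.64% of all genes tested) and below them for 2 (7.57%). The 4 were cyp-13A5, cyp-14A5, cyp-34A4 and cyp-37B1, and the 2 were cyp-25A3 and cyp-29A3. The levels of cyp-14A5 were 4.65, 6.54 and 4.37 TPM in dsb-2 against 3.28, 4.21 and 2.71 TPM in N2, a difference that did not pass the test. The median log2 fold change of the P450 genes was -0.01 in dsb-2, and 0.02 for all genes.

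The htp-3 and spo-11 strains were then compared directly, since a gene called in one and not in the other is not thereby shown to differ. Of the 49 genes, 4 were higher and 19 lower in htp-3 than in spo-11 (8.10% and 38.6% of all genes tested), so by TPM the P450 genes were near the rate of all genes. With median-of-ratios scaling the split was 15 higher and 13 lower, where 3062 of the 13650 genes tested were higher and 3603 lower, and with the replicate number as a block 7 were higher. The median log2 fold change was -0.31 for the P450 genes and -0.32 for all genes.

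The genes furthest below spo-11 in htp-3 were cyp-37B1, which averaged 0.773 ± 0.398 TPM in htp-3 against 17.3 ± 3.50 TPM in spo-11 (SD, n = 3 each; log2 change -3.37 ± 0.19, adjusted p = 1.36e-08 by limma), and cyp-34A9, which averaged 6.38 ± 2.37 TPM in htp-3 against 41.8 ± 13.3 TPM in spo-11 (log2 fold change -2.54 ± 0.34, adjusted p = 1.63e-05 by limma). Log2 fold changes were -2.19 for cyp-34A4, -2.13 for cyp-14A5 and -1.93 for cyp-33C8. None of these 5 genes overlapped between the strains, and their calls held in the alternatives run. The genes above spo-11 in htp-3 were cyp-33C9, cyp-35A3, cyp-35A4 and cyp-33E1. The gene cyp-33C9 was at 12.3, 11.7 and 10.6 TPM in htp-3 against 6.04, 5.46 and 4.66 TPM in spo-11, for a log2 change of 0.98 ± 0.20 (SE; adjusted p = 8.01e-04 by limma). Without htp-3 replicate 3 the number above spo-11 was 2, and without htp-3 replicate 1 it was 8. The call of cyp-33E1 was lost without htp-3 replicate 3, and that of cyp-35A3 in 7 of the alternatives. The gene cyp-13A5, at 37.3 ± 16.4 TPM in htp-3 and 24.2 ± 10.5 TPM in spo-11, was not called as different, except with median-of-ratios scaling (log2 fold change 1.00).

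Several members have a known role in worms. Those of subfamily 35A are induced by foreign compounds and take part in fat storage. None of the 4 tested was called in htp-3 or in spo-11 relative to N2, although cyp-35A2, cyp-35A3 and cyp-35A4 were lower in spo-11 with median-of-ratios scaling. The gene cyp-35A2 was at 27.3, 59.4 and 46.6 TPM in htp-3, 18.4, 28.7 and 15.9 TPM in spo-11, 31.6, 41.6 and 12.7 TPM in dsb-2, and 25.99, 40.5 and 14.8 TPM in N2. Each mutant overlapped N2, and htp-3 overlapped spo-11 by 1 library, with means of 44.45 TPM in htp-3 and 20.998 TPM in spo-11. With median-of-ratios scaling cyp-35A2 was called higher in htp-3 than in spo-11 (log2 fold change 1.41), while by TPM it was not called. The gene cyp-35A3 was at 2.97, 6.68 and 6.63 TPM in htp-3 against 1.87, 2.55 and 1.17 TPM in spo-11, for a log2 change of 1.13 ± 0.42 (SE; adjusted p = 0.0371 by limma). For cyp-35A4 the values were 0.708, 2.52 and 1.66 TPM in htp-3 against 0.276, 0.490 and 0.348 TPM in spo-11, for a log2 change of 0.88 ± 0.24 (SE; adjusted p = 0.00634 by limma). Both were above spo-11 in every htp-3 library. The gene cyp-35C1 was at 15.4, 27.6 and 24.3 TPM in htp-3, 15.8, 30.8 and 13.7 TPM in spo-11, 10.5, 22.6 and 5.12 TPM in dsb-2, and 12.2, 16.7 and 9.57 TPM in N2, and was called in no comparison.

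The P450 enzymes CYP-29A3 and CYP-33E2 make eicosanoids from long-chain fatty acids. The gene cyp-29A3 was at 3.68, 3.09 and 5.78 TPM in htp-3, 8.18, 9.19 and 8.80 TPM in spo-11, 1.29, 1.52 and 1.30 TPM in dsb-2, and 1.56, 1.61 and 1.59 TPM in N2. It rose by a log2 value of 0.97 ± 0.20 in htp-3 (SE; adjusted p = 9.06e-04 by limma) and 1.91 ± 0.20 in spo-11 (adjusted p = 4.28e-07 by limma), and was lower in htp-3 than in spo-11 (log2 fold change -0.94). The gene cyp-33E2 was at 5.30, 5.202 and 6.68 TPM in htp-3, 4.49, 4.99 and 3.46 TPM in spo-11, 2.998, 3.05 and 3.99 TPM in dsb-2, and 3.32, 4.29 and 3.22 TPM in N2. Its call in htp-3 (log2 fold change 0.55) was lost with median-of-ratios scaling, with only these strains in the fit, and without htp-3 replicate 3, N2 replicate 1 or N2 replicate 3. The related gene cyp-33E1 was at 5.35, 5.198 and 6.98 TPM in htp-3 against 2.61, 3.42 and 2.97 TPM in N2, for a log2 change of 0.77. In spo-11 it was at 3.59, 3.37 and 2.90 TPM, which overlapped N2.

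The gene cyp-36A1 acts with HIF-1, the hypoxia factor, in behavioural and stress responses. It rose to 7.61, 4.14 and 5.69 TPM in htp-3 and to 8.43, 7.11 and 8.07 TPM in spo-11, against 2.08, 2.64 and 2.42 TPM in N2, and was at 3.73, 2.98 and 1.89 TPM in dsb-2. The log2 fold change of cyp-36A1 was 0.98 ± 0.23 in htp-3 (SE; adjusted p = 0.00233 by limma) and 1.39 ± 0.23 in spo-11 (adjusted p = 5.17e-05 by limma). The gene cyp-13A12, which acts in the response to reoxygenation, reached 1.55 TPM in a dsb-2 library, the highest value of any untested member, and its strain means were 0.548 ± 0.139 TPM in htp-3, 0.834 ± 0.31 TPM in spo-11, 1.00 ± 0.478 TPM in dsb-2 and 0.542 ± 0.306 TPM in N2.

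**Figure D4:**
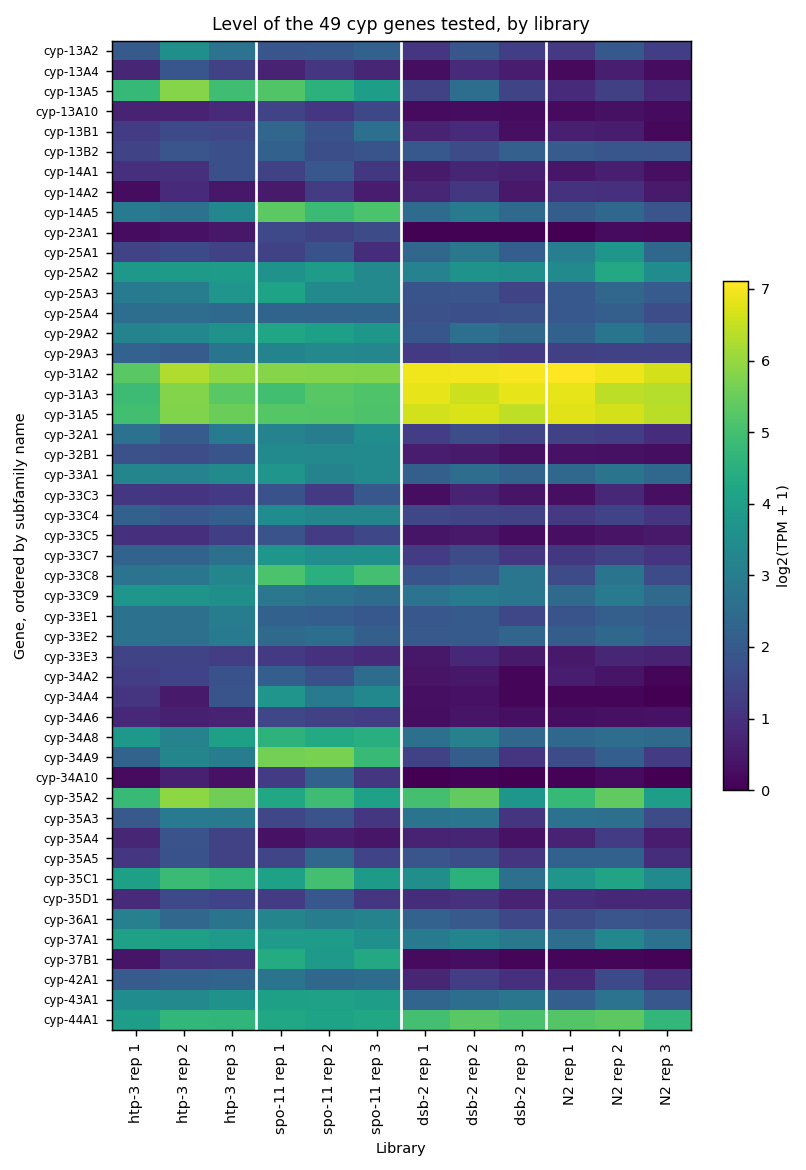
Level of the 49 cytochrome P450 genes tested (rows) in each of the 12 libraries (columns), as log2(TPM + 1) from dark (0) to bright. The 31A genes are brightest in dsb-2 and N2, while cyp-13A5, cyp-14A5, cyp-33C8 and cyp-34A9 stand out in spo-11, and cyp-13A5 in htp-3.

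By position, 36 of the 75 genes lay in 6 tandem groups, taken as 3 or more P450 genes with gaps of at most 20 kb. The group of cyp-13A1 to cyp-13A8 spans 28.4 kb on chromosome II (9779182 to 9807532). Within it cyp-13A5 stood far above its neighbours: in htp-3 the mean was 37.3 TPM for cyp-13A5, against 1.67 ± 1.02 TPM for cyp-13A4, which lies 536 bp from it, and 0.859 ± 0.120 TPM for cyp-13A6, at 397 bp. In N2 the means were 1.05, 0.278 and 0.186 TPM for cyp-13A5, cyp-13A4 and cyp-13A6. The neighbours were therefore also higher in htp-3 than in N2, from lower levels. The gene cyp-13A2, at the other side of the group, was at 3.05, 10.7 and 5.503 TPM in htp-3 against 1.26, 2.88 and 1.49 TPM in N2, for a log2 change of 1.27 ± 0.33 (SE; adjusted p = 0.00440 by limma). Its htp-3 libraries were above N2 by a narrow margin.

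The largest group, of 11 genes and 36.7 kb on chromosome V, runs from cyp-35A5 to cyp-34A10. At its cyp-35 end, cyp-35A5 was at 1.19, 2.47 and 1.67 TPM in htp-3, 1.78, 4.14 and 1.68 TPM in spo-11, 2.66, 2.30 and 1.15 TPM in dsb-2, and 3.6003, 3.59 and 0.920 TPM in N2, with overlap throughout. At its cyp-34A end, cyp-34A8 and cyp-34A9 were the highest genes in spo-11, at 21.3 ± 1.83 and 41.8 ± 13.3 TPM, and cyp-34A10, 197 bp further on, averaged 2.06 ± 1.37 TPM in spo-11, with 0.0668 ± 0.0829 TPM in N2. A second region of chromosome V holds cyp-33C1, cyp-33C2, cyp-32B1 and cyp-33C12 within 24.8 kb and cyp-33C4, cyp-33C3, cyp-33C5, cyp-33C6 and cyp-33C7 within 16.4 kb. There cyp-32B1, at 9.52 ± 0.204 TPM in spo-11, lies 165 bp from cyp-33C12, which averaged 0.258 ± 0.0689 TPM in spo-11, with 0.0233 ± 0.0249 TPM in N2. In the adjoining group, cyp-33C4 and cyp-33C7 averaged 9.02 ± 0.902 and 11.1 ± 1.17 TPM in spo-11, and cyp-33C6 0.351 ± 0.0762 TPM. Levels within a group thus differed widely in the same strain.

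**Figure D5:**
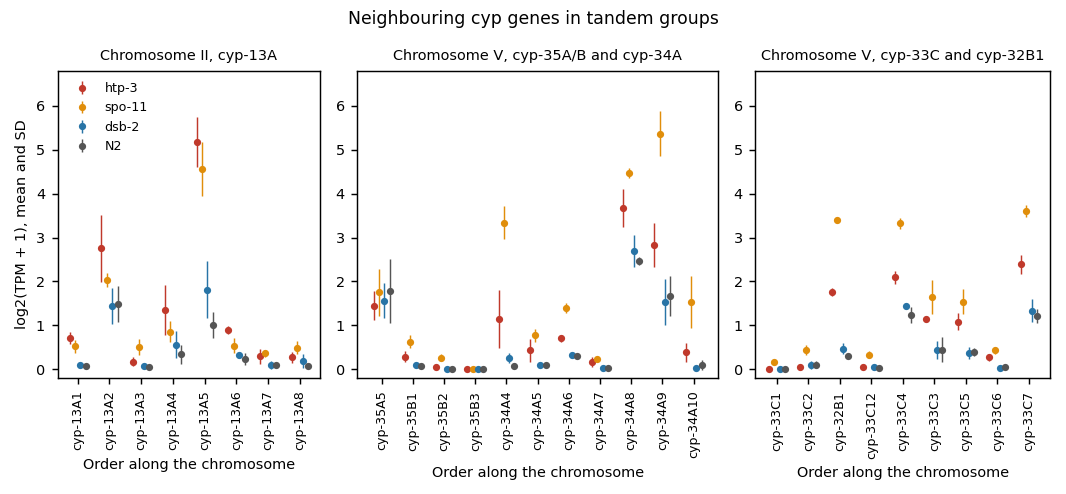
Mean log2(TPM + 1) with SD (points and bars, 3 libraries) of neighbouring cytochrome P450 genes in their order along chromosomes II and V, for htp-3, spo-11, dsb-2 and N2; the right panel joins 2 tandem groups. The genes cyp-13A5 and cyp-34A9 stand above their neighbours in spo-11, and cyp-13A5 also does in htp-3. In spo-11 cyp-32B1 stands above the rest of its own tandem group, while cyp-33C4 and cyp-33C7 of the adjoining group are at similar levels.

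The 26 genes under the minimum were low in all strains, and cyp-25A6 was listed at 0 in all 12 libraries. Together they held 192 to 287 rebuilt reads per library in htp-3, 319 to 423 in spo-11, 76 to 163 in dsb-2 and 83 to 128 in N2. All 3 libraries were above the 3 N2 libraries for 9 of the 26 in htp-3, 20 in spo-11 and 1 in dsb-2. Among all 6572 genes under the minimum the same held for 19.5% in htp-3, 48.2% in spo-11 and 3.16% in dsb-2. The 1 gene in dsb-2 was cyp-33D3, at 0.145, 0.169 and 0.0443 TPM in dsb-2 against 0.0425, 0.0238 and 0.0390 TPM in N2. Its rebuilt reads were 5, 6 and 2 in dsb-2 and 2, 1 and 2 in N2, so that order rested on very few reads. The gene cyp-33D3 was also above N2 in the others, at 0.442, 1.18 and 0.508 TPM in htp-3 and 0.498, 0.683 and 0.563 TPM in spo-11. In the other direction, cyp-29A4 was at 0.256, 0.249 and 0.260 TPM in dsb-2, below its 0.520, 0.512 and 0.401 TPM in N2. The gene cyp-35B1, known as a target of DAF-16, was at 0.121, 0.212 and 0.338 TPM in htp-3, 0.737, 0.439 and 0.492 TPM in spo-11, and 0.0583, 0.0653 and 0.0535 TPM in N2. Of the genes induced by foreign compounds, cyp-35A1 reached 0.228, 1.19 and 0.356 TPM in spo-11 and at most 0.0473 TPM in any other library. The gene cyp-14A3 reached at most 0.527 TPM and cyp-13A7 at most 0.410 TPM.

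Of 14 intestinal markers tested, 8 were higher and 1 lower in htp-3, and likewise in spo-11, where 39.5% of all genes tested were higher in htp-3 and 55.6% in spo-11. The count in spo-11 is thus near the rate of all genes. With median-of-ratios scaling 6 were higher and 2 lower in htp-3 and 6 higher and 3 lower in spo-11. Their summed level was 5640 to 8932 TPM in htp-3, 8452 to 11062 TPM in spo-11, 2536 to 3144 TPM in dsb-2 and 2605 to 3843 TPM in N2. For other somatic cells, of 8 muscle markers 7 were higher in htp-3 and 8 in spo-11, of 8 neuronal markers 6 were higher in htp-3 and 8 in spo-11, and of 8 hypodermal markers 3 were higher and 2 lower in htp-3 and 7 higher in spo-11. With median-of-ratios scaling the hypodermal counts were 3 higher and 3 lower in htp-3 and 3 higher and 1 lower in spo-11. Of 9 sperm markers, 1 was higher and 1 lower in htp-3, and 8 were higher in spo-11. The part of the cell types marked by these lists in the P450 values was not tested.

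Most changes among the electron donors depended on the scaling. The reductase gene emb-8 was at 78.8, 97.0 and 86.3 TPM in htp-3, 72.9, 82.1 and 80.5 TPM in spo-11, 109, 112 and 118 TPM in dsb-2, and 94.4, 100.1 and 70.8 TPM in N2, and was called in no comparison. Of the 4 donor genes, 1 was higher in htp-3, and 2 were higher and 1 lower in spo-11. Among all genes tested, 39.5% were higher in htp-3, and 55.6% were higher and 22.1% lower in spo-11. With median-of-ratios scaling 3 donor genes were lower in htp-3 and 2 in spo-11, and none was higher in either. The cytochrome b5 gene cytb-5.1 was at 148, 149.8 and 131 TPM in htp-3, 201, 212 and 158 TPM in spo-11, and 96.7, 117 and 84.4 TPM in N2. Its log2 fold change by TPM was 0.53 in htp-3 and 0.93 in spo-11. The second cytochrome b5 gene, cytb-5.2, was at 334, 284 and 327 TPM in spo-11 against 228, 232 and 225 TPM in N2, for a log2 change of 0.46. The gene hpo-19, of the same list, was at 136, 139 and 127 TPM in spo-11 against 265, 238 and 223 TPM in N2, for a log2 change of -0.85. No donor gene was called in dsb-2.

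In the steroid hormone pathway, the P450 DAF-9 makes dafachronic acids, the ligands of the nuclear receptor DAF-12. Of 7 genes tested, 4 were higher in htp-3, and 5 were higher and 1 lower in spo-11. Among all genes tested, 39.5% were higher in htp-3, and 55.6% were higher and 22.1% lower in spo-11. With median-of-ratios scaling 3 of the 7 were higher and 1 lower in htp-3, and the counts in spo-11 were the same. The gene daf-9 was at 1.15, 0.850 and 1.12 TPM in htp-3, 3.42, 3.44 and 3.93 TPM in spo-11, 0.361, 0.620 and 0.470 TPM in dsb-2, and 0.264, 0.418 and 0.356 TPM in N2. Its log2 fold change was 0.60 ± 0.14 in htp-3 (SE; adjusted p = 0.00287 by limma) and 1.77 ± 0.14 in spo-11 (adjusted p = 3.68e-08 by limma), and daf-9 was lower in htp-3 than in spo-11 (log2 fold change -1.17). The gene ncr-1, a relative of the human cholesterol transporter NPC1, was at 10.1, 6.48 and 6.08 TPM in htp-3 and 11.2, 9.26 and 12.3 TPM in spo-11, against 1.28, 1.76 and 1.33 TPM in N2. Its relative ncr-2 was at 3.30, 2.51 and 5.52 TPM in spo-11 against 0.146, 0.227 and 0.0818 TPM in N2, for a log2 change of 2.01. In htp-3 ncr-2 was at 0.430, 0.497 and 0.512 TPM and was not called. The receptor gene daf-12 was higher in both, with log2 fold changes of 1.43 in htp-3 and 1.71 in spo-11. The gene lower in spo-11 was let-767, at 128, 151 and 118 TPM against 251, 255 and 233 TPM in N2 (log2 fold change -0.90). By TPM let-767 was not called in htp-3. It held most of the summed level of the list, which was 244 to 266 TPM in htp-3, 167 to 198 TPM in spo-11, 225 to 248 TPM in dsb-2 and 249 to 279 TPM in N2.

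Among 14 regulators of P450 or detoxification genes tested, 5 were higher and 1 lower in htp-3, and 9 were higher and 1 lower in spo-11, where 39.5% of all genes tested were higher in htp-3 and 55.6% in spo-11. With median-of-ratios scaling 3 were higher and 4 lower in htp-3, and 3 were higher and 2 lower in spo-11. The transcription factor gene pqm-1 was at 46.5, 42.04 and 41.98 TPM in htp-3 and 89.4, 102 and 91.7 TPM in spo-11, against 9.43, 13.7 and 10.3 TPM in N2, with log2 fold changes of 1.89 in htp-3 and 2.98 in spo-11. The nuclear receptor gene nhr-176, whose product is needed for induction of cyp-35D1 by thiabendazole, was at 7.44, 8.93 and 7.003 TPM in htp-3 and 14.2, 11.8 and 11.6 TPM in spo-11, against 1.34, 2.77 and 0.868 TPM in N2. The hypoxia factor gene hif-1 was at 83.1, 72.2 and 68.1 TPM in htp-3 and 76.3, 78.0 and 85.2 TPM in spo-11, against 32.4, 38.1 and 39.7 TPM in N2, with log2 fold changes of 1.00 in htp-3 and 1.10 in spo-11. The nuclear receptor gene nhr-25 was at 2.61, 1.36 and 1.54 TPM in spo-11 against 0.187, 0.237 and 0.342 TPM in N2, for a log2 change of 1.15. None of these regulators overlapped between the strains compared. The gene cyp-35D1 itself was at 0.832, 1.95 and 1.72 TPM in htp-3, 1.35, 2.81 and 1.19 TPM in spo-11, and 0.903, 0.781 and 0.752 TPM in N2. It was called higher in spo-11 (log2 fold change 0.57, adjusted p = 0.0275 by limma) and not in htp-3. The call of cyp-35D1 in spo-11 was lost with median-of-ratios scaling (log2 fold change 0.12). No regulator and no steroid pathway gene was called in dsb-2.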

How the data were processed

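RNA-seq of whole adult worms was examined in 12 libraries of 4 strains. The authors' deposited tables give TPM (used for all levels and tests) and RPKM per gene, per the file headers, with genes placed on WBcel235, per the submitters' processing notes. The sources used here give no aligner, counting method, strand setting or annotation release. Reads shared by near-identical, overlapping or antisense genes cannot be told apart. Depth was rebuilt from the steps of the deposited RPKM values: where a gene had values in 4 or more libraries, 18040 of 18042 genes came out as whole reads within 0.05 reads. The gene length this implies equalled the exon length in the Ensembl annotation used here for 3867 of those genes and for 8 of the P450 genes, and both ends of the gene matched for 5 of the 75 P450 genes, so rebuilt reads rest on inferred lengths and positions are the files' own.

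The P450 genes and all gene lists were chosen with earlier results of these data known. The 13650 genes reaching 1 TPM in 3 or more libraries entered 1 limma fit (version 3.58.1, R 4.3.3) of log2(TPM + 1) on strain over all 12 libraries, using limma's trend option. Calls used an adjusted p under 0.05, by Benjamini-Hochberg across those genes. This scale understates changes of low genes. The procedure was tested on simulated data in which few genes changed, evenly up and down, in a single strain. That setting held no broad shift like those of htp-3 and spo-11 and no changed genes of low level, so it does not test these. Named genes were cyp-13A5, the 10 highest and 10 lowest called genes per comparison with N2 (5 and 5 between mutants) averaging 5 TPM or more in the higher strain, with no overlap, the 5 highest in N2, members with a known role, and the 3 genes of smallest p in each pathway list (described where called relative to N2). Genes named outside this rule were chosen after their values were seen. These were cyp-32B1, cyp-33C7 and cyp-33C8 in htp-3, cyp-34A8, daf-12, hif-1 and let-767 in spo-11, and cyp-29A4 in dsb-2. They also included cyp-25A2, cyp-33D3, cyp-35C1, cyp-35D1, neighbours in tandem groups and genes that changed call between scalings.

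Across genes, the deviations of same-numbered libraries correlated in several pairs of strains, a hint in the data that no label states. By replicate, r was 0.12, 0.44 and 0.23 for htp-3 and spo-11, and 0.35, 0.39 and 0.07 for dsb-2 and N2. It was 0.14, 0.04 and 0.34 for spo-11 and N2, and -0.10, 0.11 and 0.17 for htp-3 and N2. The replicate block was run for every comparison and is given beside that of htp-3 and spo-11, where it moved a count. Alternatives were another scaling, filter, pseudocount, unit, test, threshold or set of libraries. Gene sequences were not analysed here.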

Additional observations from a re-analysis of the deposited data

How the results depend on the processing

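The single-gene changes followed (63 genes by comparison, 943 values under alternatives) kept their direction, and 32 of the 943 values lost the call while 1 gained it. Counts moved more. Median-of-ratios scaling gave 13 P450 genes lower in spo-11 than in N2 and 15 higher in htp-3 than in spo-11. Without a filter 50 were higher in spo-11 than in N2 and 30 lower in htp-3 than in spo-11. A minimum of 5 TPM, which tests fewer genes, gave 21 higher in htp-3 and 18 in spo-11 relative to N2, and 12 lower in htp-3 than in spo-11. A fold change of at least 2 left 16 higher in htp-3 than in N2, and 1 higher and 10 lower in htp-3 than in spo-11. With the replicate block 7 were higher in htp-3 than in spo-11, and it moved no other count by over 1.5 times. Leaving out 1 library gave 2 to 8 genes higher and 14 to 19 lower in htp-3 than in spo-11, 30 to 35 higher and 4 to 5 lower in htp-3 than in N2, 28 to 30 higher and 5 to 6 lower in spo-11 than in N2, and 0 in dsb-2. In dsb-2 the other alternatives also called 0. Filters change which genes enter the test, and a fold-change threshold on the same fit can only lower a count. The cause of the remaining shifts was not tested. Genes of a few reads in N2, such as cyp-37B1 and cyp-34A4, have fold changes that depend on the pseudocount: for cyp-37B1 in spo-11 it ranged from 2.12 to 7.83 on the log2 scale over the alternatives.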

Other observations

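Conjugating enzymes act on the products of P450 enzymes. Where 39.5% of all genes tested were higher in htp-3 and 55.6% in spo-11, both families below had larger shares. Of 52 ugt- genes tested, which encode UDP-glucuronosyltransferases, 39 were higher and 2 lower in htp-3, and 39 were higher and 3 lower in spo-11, while 0 were higher and 1 was lower in dsb-2. Of 37 gst- genes tested, which encode glutathione S-transferases, 27 were higher and 2 lower in htp-3, 27 were higher and 1 lower in spo-11, and 0 were called in dsb-2. With median-of-ratios scaling the ugt- counts were 30 higher and 3 lower in htp-3 and 34 higher and 9 lower in spo-11, and the gst- counts were 23 higher and 4 lower in htp-3 and 23 higher and 8 lower in spo-11. The summed level of the 65 ugt- genes was 803, 747 and 902 TPM in htp-3, 954, 1046 and 915 TPM in spo-11, 428, 475 and 461 TPM in dsb-2, and 505, 605 and 439 TPM in N2. Every htp-3 and spo-11 library was above every N2 library. These comparisons share the N2 libraries.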
